A study of Tetranychus cinnabarinus with 8 samples.

Results

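The 4 genes of kinase and small GTPase signalling described here were measured in the carmine spider mite *Tetranychus cinnabarinus*, a plant-feeding pest, after a spray of curcumin, a polyphenol of turmeric. They are guanylate kinase (tetur07g05920), Ser/Thr protein kinase (tetur10g04980), Ras GTPase (tetur08g03710) and RabGAP/TBC (tetur04g07610). The members were chosen by name, as the genes of this kind that the study singled out, and they are 4 of 15764 gene models with reads in at least 1 of the 8 libraries. All 4 of 4 passed the filter on low counts, which left 12227 genes for the test. The study picked its genes by their difference on these same libraries. It listed guanylate kinase at 48 h only, Ser/Thr protein kinase and RabGAP/TBC at 24 h only, and Ras GTPase at both times. A value at a listed time is therefore a description of a gene picked for it, and its adjusted p-value is not independent evidence.

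RNA was sequenced from whole female adults of a susceptible strain, 2 days old by the labels. Mites on cowpea leaves were sprayed with curcumin at 2.64 mg/mL in water with Tween 80 and acetone, or with that solvent alone, and live mites were collected 24 h or 48 h later. This gave 4 groups with 2 biological replicates each, named here solvent 24 h, curcumin 24 h, solvent 48 h and curcumin 48 h. The dose was one chosen by the study to be lethal to a part of the mites, dishes were pooled within a replicate, and mites that had died were not in the RNA. Because the RNA came from whole pooled mites, fewer cells of a type and less RNA per cell cannot be told apart. The libraries held between 8033325 and 8617973 estimated reads on genes. The shortest gene model listed was 132 and 131 bp long in the libraries of curcumin 48 h, and 140 to 145 bp in those of the other groups. This difference lies in the same libraries as the lowest values of guanylate kinase and Ras GTPase, and its part in them was not tested. Vitellogenin 1 (tetur39g00730), a yolk protein gene of adult females, was listed in all 8 libraries, in RPKM, the reads scaled to gene length and mapped reads. It had 2.02 and 1.59 RPKM in solvent 24 h, 6.21 and 9.66 in curcumin 24 h, 23.9 and 10.9 in solvent 48 h, and 2.69 and 2.69 in curcumin 48 h.

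Guanylate kinase in other animals passes a phosphate from ATP to GMP and so makes GDP, the precursor of GTP; a guanylate kinase fold also occurs without catalysis in scaffold proteins at cell junctions. Ras GTPases are switches that signal while bound to GTP and stop once they have cleaved it to GDP, and downstream of them run cascades of Ser/Thr protein kinases, which phosphorylate serine and threonine of other proteins. Proteins with a TBC domain are RabGAPs, which speed the cleavage of GTP by Rab GTPases and thereby end a step of vesicle traffic. These roles are background from other species. The gene models in the files are short, at 336 bp for guanylate kinase, 185 bp for Ser/Thr protein kinase, 156 bp for Ras GTPase and 537 bp for RabGAP/TBC. What part of each gene such a length covers is not stated in the labels or methods, and the names are the study's.

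The primer pairs designed by the study for its own PCR assay are shown because they are the sequences the study itself tied to these gene names; they were not placed on the gene models here. There was a pair for 3 of the 4 genes, and RabGAP/TBC had none among those used here. The sequences run 5′ to 3′ in lower case, with no part marked, and the PCR values themselves are not used.
guanylate kinase forward: cttcacaagtcgtgccaagc
guanylate kinase reverse: ttgtcaaaatgatggccaaa
Ser/Thr protein kinase forward: atttggaacgcctgaatttg
Ser/Thr protein kinase reverse: caaatgcttcgtcatcgaaa
Ras GTPase forward: ccggtggagttggtaaaactt
Ras GTPase reverse: gctggaagtgttattgtgtgc

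The 4 genes fell into 2 sets by the groups in which their means were highest. Guanylate kinase and Ras GTPase were highest in curcumin 24 h and solvent 48 h, lower in solvent 24 h and lowest in curcumin 48 h. Vitellogenin 1 was likewise higher in curcumin 24 h and solvent 48 h than in the other 2 groups without overlap. The study had itself listed vitellogenin 1 on these libraries, as higher under curcumin at 24 h and lower at 48 h. The likeness is therefore not independent of that choice, and its part in the results of guanylate kinase and Ras GTPase was not tested. Ser/Thr protein kinase and RabGAP/TBC were highest in solvent 24 h. Guanylate kinase was the only one of the 4 that passed the test in any comparison, and it did so in both comparisons that set curcumin 48 h against another group. After centring each gene on the log2(RPKM + 1) scale, the closest pair was Ser/Thr protein kinase and RabGAP/TBC, with a root mean square distance of 0.43 over the 8 libraries, against 1.55 for guanylate kinase and Ras GTPase and 1.63 to 2.24 for the other pairs. The distance of 0.43 was only somewhat below the root mean square spreads of Ser/Thr protein kinase and RabGAP/TBC about their own means, 0.49 and 0.54. It was also only somewhat below their median distances to the tested genes outside the 4, 0.51 and 0.56. The distance of 1.55 exceeded the root mean square spread of Ras GTPase about its own mean, 1.42. Guanylate kinase and Ras GTPase thus shared an order of means rather than a close pattern.

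**Figure D1:**
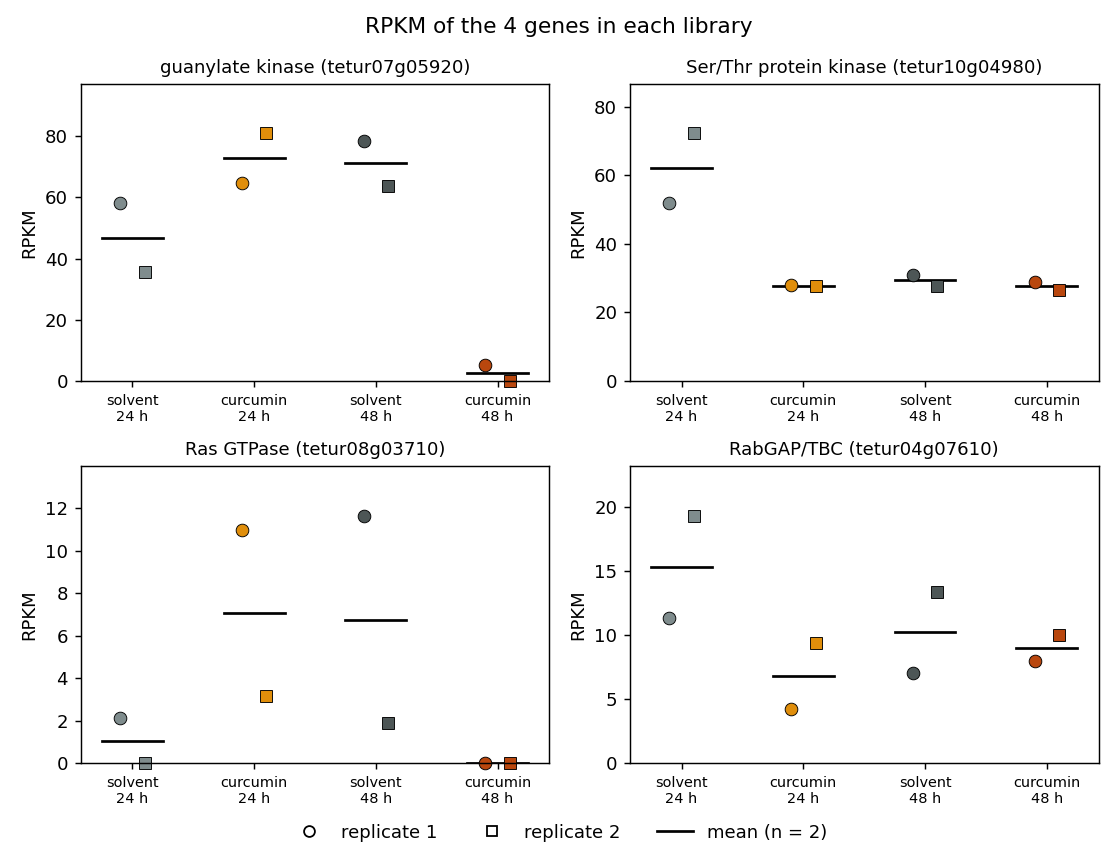
RPKM of each gene in the 8 libraries, with the group on the horizontal axis, 1 point per library and a bar at the mean of the 2 replicates; each panel has its own vertical scale from 0. Guanylate kinase lay between 35.5 and 81.0 in 6 libraries and at 5.10 and 0 in curcumin 48 h, whereas Ser/Thr protein kinase lay between 26.6 and 30.9 in every library outside solvent 24 h.

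Guanylate kinase had 58.1 and 35.5 RPKM in solvent 24 h, 64.8 and 81.0 in curcumin 24 h, 78.6 and 63.9 in solvent 48 h, and 5.10 and 0 in curcumin 48 h. Both libraries of curcumin 48 h were below all 6 others. The group means were 46.8 ± 16.0, 72.9 ± 11.5, 71.2 ± 10.4 and 2.55 ± 3.61 RPKM (SD, n = 2 each). In reads, the 6 other libraries held between 147.9 and 315.6, whereas the libraries of curcumin 48 h held 20.4 and 0. The 20 reads of the first have a 95% Poisson interval of 12.2 to 30.9, which covers counting error only, as do all such intervals here. In the 6 other libraries guanylate kinase was above between 85.0% and 92.9% of the genes listed, and in the first library of curcumin 48 h above 45.6%.

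At 48 h guanylate kinase fell by 4.82 on the log2 scale under curcumin (SE 0.63, 95% interval -6.23 to -3.42, edgeR FDR = 0.0254), and the ratio of the mean RPKM was 27.9-fold lower. It was 1 of 4 members called at 48 h, where 0.18% of all genes tested were called and 0.0818% were called lower; at an unadjusted p under 0.05 it was 2 of 4 members (Ras GTPase being the other) and 7.84% of all genes. This is the time point at which the study listed the gene, so the call is not independent of the choice. The first curcumin library alone was 13.7-fold lower than the solvent libraries after scaling to the reads on genes, and the second, at 0, was at least 97.2-fold lower when set to a floor of 3 reads in that library. Leaving out a library ended the call for 4 of 8: the FDR rose to 0.0797 when the first library of solvent 48 h was dropped, to 0.0529 for the second, and to 0.0638 and 0.0686 for the first and second of curcumin 24 h. Without the first library of curcumin 48 h the fitted change was -11.19 (FDR = 0.00564), which is no bound on the fold since the remaining library is at 0, and without the second it was -3.79 (FDR = 0.0353). DESeq2 put the same change at -4.80 with an FDR of 0.0811, and its SE of 1.41 is computed in another way than that of edgeR.

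**Figure D2:**
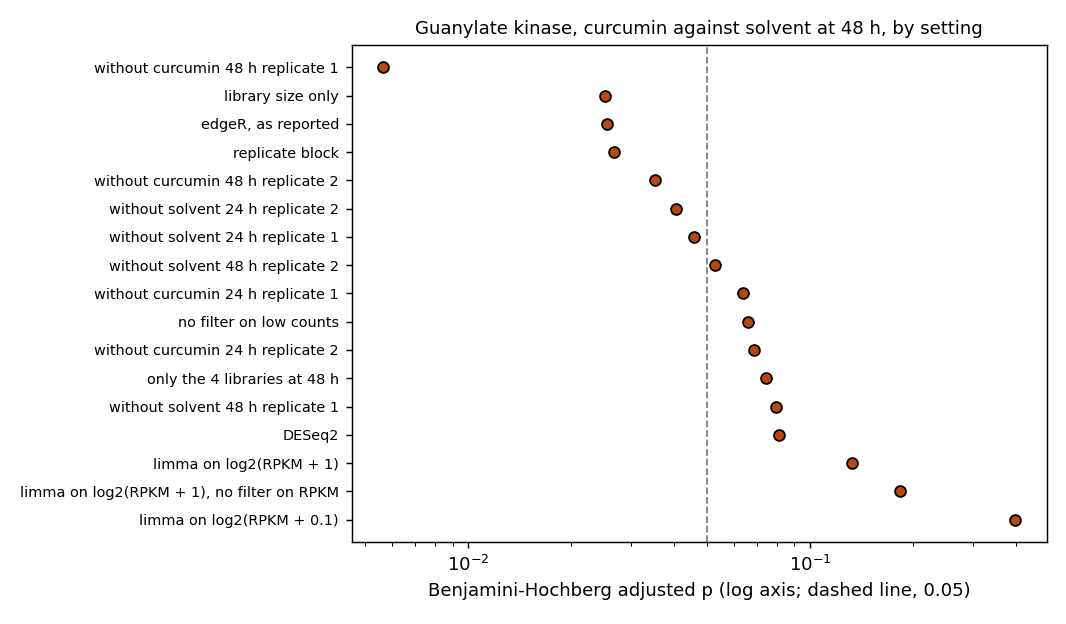
Adjusted p of guanylate kinase for curcumin against solvent at 48 h, on a log axis, with 1 point per setting and a dashed line at 0.05. The settings run from 0.00564 to 0.398, and 6 of the 16 alternatives lie at or under the line.

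At 24 h, where the study did not list it, guanylate kinase was higher in both curcumin libraries than in both solvent libraries, by a ratio between 1.11 and 2.28 over the pairs of libraries. The fitted change of 0.65 (SE 0.43, 95% interval -0.32 to 1.61) did not pass the test (edgeR FDR = 0.758). Of all genes tested, 20.2% were likewise higher without overlap at 24 h. The change at 48 h less that at 24 h came to -5.47 (SE 0.78, unadjusted p = 4.7e-05), the lowest p but 2 of all genes, and it did not pass the adjustment (edgeR FDR = 0.191).

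Over time, guanylate kinase fell by 4.81 on the log2 scale from 24 h to 48 h in mites under curcumin (SE 0.63, edgeR FDR = 0.0218). In this comparison 0.458% of all genes were called and 0.262% were called lower, against 1 of 4 members. At an unadjusted p under 0.05 there were 2 of 4 members and 12.8% of all genes. The comparison shares the curcumin 48 h libraries with the one above and so repeats the same 2 low values. The call was lost without the first (FDR = 0.0974) or the second (FDR = 0.152) library of curcumin 24 h, and the fitted change was -11.17 without the first library of curcumin 48 h. In solvent the gene had 46.8 RPKM at 24 h and 71.2 at 48 h, and the fitted difference of 0.66 (SE 0.43) did not pass (FDR = 0.642), although the libraries did not overlap, as for 15.9% of all genes in this direction.

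The value of 0 in the second curcumin library at 48 h was looked at against genes of like abundance. Among 6638 genes with at least 100 reads in each of the 6 libraries of the other groups, guanylate kinase was the only one at 0 in that library, and none was at 0 in the first library of curcumin 48 h. In curcumin 48 h it held 4.09% of its mean level in the other groups after the same scaling, the lowest share of the 6638 genes, and the next lowest, tetur31g01490, held 23.8%. Only 0.147% of the genes tested differed more between the replicates of curcumin 48 h. These are descriptions of the libraries in which the study chose the gene.

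**Figure D3:**
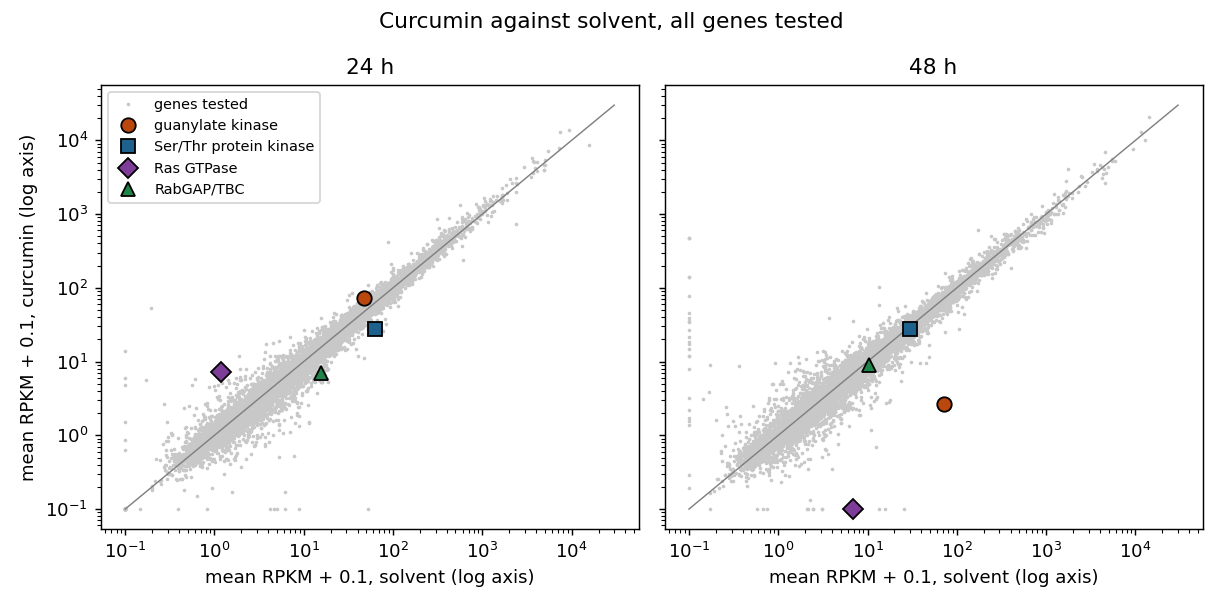
Mean RPKM plus 0.1 under curcumin against that under solvent at 24 h and at 48 h, both on log axes, for all 12227 genes tested in grey and the 4 named genes as coloured symbols; the line marks equal levels. At 48 h guanylate kinase lies at 71.2 RPKM under solvent and 2.55 under curcumin, apart from genes of like abundance, while Ser/Thr protein kinase and RabGAP/TBC lie near the line.

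Ras GTPase had few reads throughout, and its group means followed the same order, with overlap between neighbouring groups. It had 2.14 and 0 RPKM in solvent 24 h, 10.97 and 3.17 in curcumin 24 h, 11.63 and 1.88 in solvent 48 h, and 0 in both libraries of curcumin 48 h. The reads behind these values were 3.81 and 0, 19.1 and 5.39, 19.0 and 3.19, and 0 and 0. In each of the 3 groups with reads the library numbered 1 was the higher. The replicates differed 3.46-fold in curcumin 24 h and 6.19-fold in solvent 48 h. In solvent 48 h the Poisson intervals of 19 reads (11.4 to 29.7) and of 3 reads (0.619 to 8.77) did not overlap, so that these replicates differed by more than counting error. With 50.5 reads over all 8 libraries, depth limits what can be said of this gene. Of the 174 models within 10 bp of its length, between 20.7% and 33.9% were at 0 in a given library.

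The study listed Ras GTPase at both time points, so that neither comparison is free of the choice. At 24 h both curcumin libraries were above both solvent libraries, with 24.5 reads in sum against 3.81, and the fitted change was 2.58 (SE 1.31, 95% interval -0.42 to 5.57, edgeR FDR = 0.707). It moved to 6.58 without the first and 1.62 without the second library of solvent 24 h, the former against a library at 0, and to 1.35 when the first library of curcumin 24 h was left out. At 48 h both curcumin libraries were below both solvent libraries, with 0 reads against 22.2. With a floor of 3 reads over the group, curcumin 48 h was at least 7.78-fold lower than solvent 48 h and at least 8.17-fold lower than curcumin 24 h. These bounds rest mainly on 1 library each, with 19.0 of the 22.2 reads of solvent 48 h and 19.1 of the 24.5 reads of curcumin 24 h. Without that library, a setting added after the data were seen, they came to 2.23-fold and 3.64-fold, from 3.19 and 5.39 reads. The fitted changes of -6.59 in both comparisons depend on the prior count and are no bounds, and they did not pass the test (edgeR FDR = 0.519 and 0.265). The change at 48 h less that at 24 h came to -9.17 (SE 2.56, unadjusted p = 0.00663, edgeR FDR = 0.399), and DESeq2 gave it an FDR of 0.0776. In solvent the libraries of 24 h and 48 h overlapped.

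Ser/Thr protein kinase had 51.8 and 72.4 RPKM in solvent 24 h, 27.87 and 27.73 in curcumin 24 h, 30.9 and 27.9 in solvent 48 h, and 28.8 and 26.6 in curcumin 48 h. The solvent 24 h libraries stood above all 6 others, which lay within 26.6 to 30.9. The means were 62.1 ± 14.5 in solvent 24 h, 27.8 ± 0.098 in curcumin 24 h, 29.4 ± 2.19 in solvent 48 h and 27.7 ± 1.59 in curcumin 48 h (SD, n = 2 each). The reads were 111.6 and 158.6 in solvent 24 h and between 56.9 and 61.2 in the other libraries.

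At 24 h, the time at which the study listed it, the fitted change of Ser/Thr protein kinase under curcumin was -1.15 (SE 0.24, 95% interval -1.67 to -0.62, unadjusted p = 0.000776), and it did not pass the adjustment over all genes (edgeR FDR = 0.382). At 24 h 0 of 4 members and 0% of all genes were called by edgeR, with 903 genes, or 7.39%, at an unadjusted p under 0.05, and DESeq2 called 39 genes. At 48 h, where the study did not list it, the libraries overlapped and the fitted change was -0.06 (SE 0.25, FDR = 0.978). Its 95% interval was -0.62 to 0.49, and that at 24 h ended at -0.62. Both values carry an error, so the times were compared by the test of their difference. The test of the difference between the times gave 1.08 (SE 0.34, unadjusted p = 0.0106, FDR = 0.450), in a comparison in which 0% of all genes were called by edgeR, 8.11% had an unadjusted p under 0.05, and DESeq2 called 55.

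The low level of Ser/Thr protein kinase was also that of solvent mites a day later. From 24 h to 48 h in solvent the fitted change was -1.03 (SE 0.24, unadjusted p = 0.00154, edgeR FDR = 0.171), with both libraries of 48 h below both of 24 h, as in 24.9% of all genes. Of all genes 0.188% were called over time in solvent (0.172% higher and 0.0164% lower), and 0 of the 4 members were, with 1 of 4 members and 10.1% of all genes at an unadjusted p under 0.05. In curcumin the change over time was 0.05 (SE 0.25, 95% interval -0.51 to 0.60, FDR = 0.961). The comparison at 24 h and the comparison over time in solvent share the solvent 24 h libraries, so that both rest on the same 2 high values.

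RabGAP/TBC had 11.35 and 19.34 RPKM in solvent 24 h, 4.28 and 9.38 in curcumin 24 h, 7.10 and 13.39 in solvent 48 h, and 7.98 and 10.02 in curcumin 48 h. The means were 15.3 ± 5.65, 6.83 ± 3.61, 10.2 ± 4.45 and 9.00 ± 1.44 (SD, n = 2 each), and each group overlapped with its neighbour in the order of means. In all 4 groups the library numbered 2 was the higher, by 1.26-fold to 2.19-fold. The same held for 1458 of the 12227 genes tested (11.9%), while 617 genes (5.05%) were higher in the library numbered 1 in all groups. The methods describe a replicate as dishes of the same experiment, but do not say whether libraries of different groups with one number shared it.

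Under curcumin RabGAP/TBC was lower in both libraries at 24 h, by 2.65-fold between the libraries numbered 1 and 2.06-fold between those numbered 2. The fitted change was -1.15 (SE 0.42, 95% interval -2.09 to -0.22, unadjusted p = 0.0210, edgeR FDR = 0.602), at the time at which the study listed the gene, and 22.6% of all genes were lower without overlap at 24 h. It moved to -0.71 without the second library of solvent 24 h, to -0.69 without the first library of curcumin 24 h and to -1.81 without the second. At 48 h, where it was not listed, the libraries overlapped and the change was -0.17 (SE 0.42, 95% interval -1.10 to 0.77, FDR = 0.959). The libraries numbered 1 and 2 differed in opposite directions at 48 h, with ratios of curcumin to solvent of 1.12 and 0.748. The difference between the changes was 0.98 (SE 0.59, FDR = 0.706). Over time the change was -0.55 in solvent (FDR = 0.680) and 0.44 in curcumin (FDR = 0.717).

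**Figure D4:**
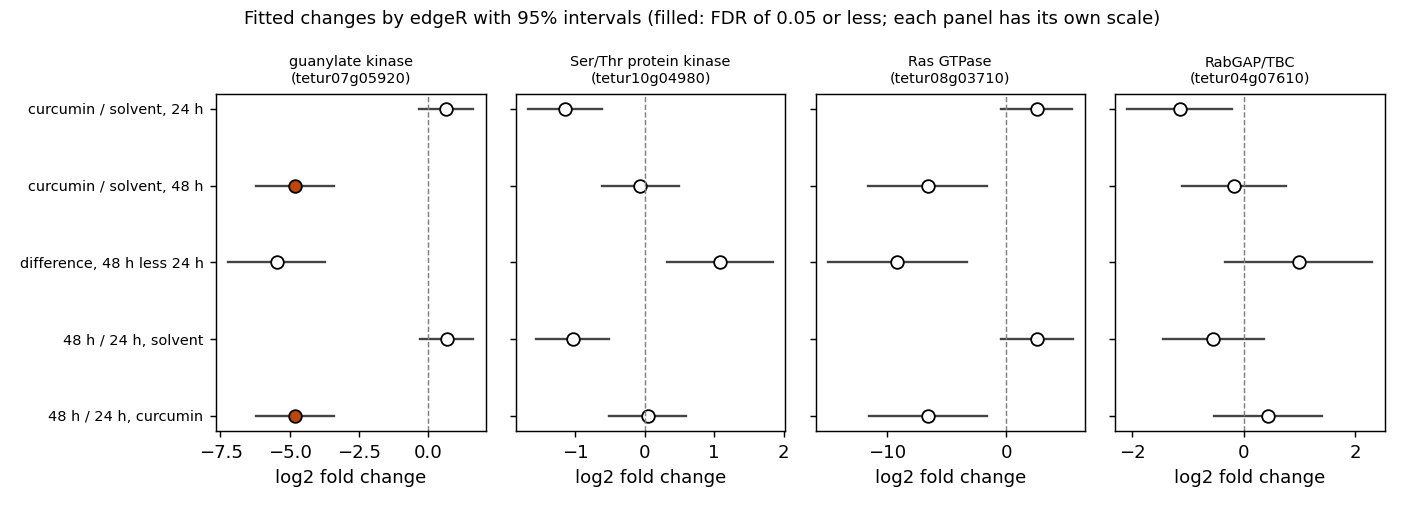
Fitted log2 fold changes by edgeR with 95% intervals for the 4 genes in 5 comparisons; a filled point has an FDR of 0.05 or less, and each panel has its own horizontal scale. Guanylate kinase is filled at -4.82 (curcumin against solvent at 48 h) and -4.81 (48 h against 24 h in curcumin), no other gene is filled, and the values of Ras GTPase that involve curcumin 48 h, such as -6.59, rest on a group at 0.

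At 24 h the libraries did not overlap for 4 of 4 members, 2 higher and 2 lower, where 20.2% of all genes were higher and 22.6% lower without overlap, and at 48 h for 2 of 4, both lower, where 15.8% of all genes were higher and 17.3% lower. From 24 h to 48 h in curcumin 2 of 4 members, guanylate kinase and Ras GTPase, were lower without overlap, as were 27.2% of all genes, and 0 of 4 were higher, as were 18.3%. The study listed Ser/Thr protein kinase, RabGAP/TBC and Ras GTPase at 24 h for their difference on these libraries. It listed guanylate kinase and Ras GTPase at 48 h in the same way, so that these counts are no independent support. The comparisons at 24 h and 48 h share no library, but their fits share the estimate of the spread.

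Reads shared with near-identical copies could not be told apart, and kinases and small GTPases belong to large families. None of the 4 had the same values as another model of equal length, among 11 to 19 such models each. The genes whose pattern was most like each member were found by the root mean square distance of centred log2(RPKM + 1) over the 8 libraries. For guanylate kinase they were tetur04g01600 at 1.40, tetur140g00020 at 1.45 and tetur14g00750 at 1.52, where its own spread was 2.15. No tested gene came close to it by this distance, which weighs the size of a change as well as its shape. The nearest to Ras GTPase were tetur01g05020, tetur33g00550 and tetur02g09880 at 0.86 to 0.89, with an own spread of 1.42. Those of Ser/Thr protein kinase were closer, with tetur32g01270, tetur08g07140 and tetur25g00820 at 0.20 to 0.21 and an own spread of 0.49. Those of RabGAP/TBC were tetur01g02880, tetur07g00290 and tetur13g01980 at 0.21 to 0.24, with an own spread of 0.54.

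Other signalling genes were taken from a list of 10 that the study annotated to signal transduction, MAPK, phosphatidylinositol or calcium signalling and related terms, and which it had picked on these libraries. Of these, 9 passed the filter on low counts, and phospholipase A2 (tetur05g07400), which frees fatty acids from membrane lipids, did not. None was called higher or lower at either time by edgeR, where 0% of all genes were called at 24 h and 0.18% at 48 h. At an unadjusted p under 0.05 there were 5 of the 9 at 24 h and 4 at 48 h, against 7.39% and 7.84% of all genes, which is no independent support since the study picked the list on these libraries. The lowest FDR was 0.373 and 0.0548. The median fitted change of the list was 0.48 at 24 h and 0.93 at 48 h, against -0.01 and 0.002 over all genes tested. Phospholipase C (tetur05g03410), which cleaves phosphatidylinositol bisphosphate to second messengers, had 4.99 and 8.24 RPKM in solvent 48 h and 22.2 and 14.5 in curcumin 48 h, with a fitted difference of 1.51 (FDR = 0.207). Neuromedin-K receptor (tetur453g00010), named for a receptor of tachykinin peptides, was absent from the lists of all 4 solvent libraries, and had 5.09 and 4.46 RPKM in curcumin 24 h and 0.816 and 2.09 in curcumin 48 h. These values rest on few reads, 14.4 and 12.3 in curcumin 24 h and 2.32 and 6.08 in curcumin 48 h (edgeR FDR = 0.473 at 24 h and 0.547 at 48 h). Replicates of listed genes could differ widely, as for calmodulin (tetur04g01900) with 0 and 77.9 reads in curcumin 24 h. The gene with the lowest FDR, tetur02g00040, annotated by the study to MAPK signalling, had 6.59 and 5.44 RPKM in solvent 24 h, 15.7 and 11.0 in solvent 48 h and 0 in all 4 curcumin libraries. Its solvent values rest on 14.0 and 11.8 reads at 24 h and 30.6 and 22.3 at 48 h. DESeq2 did call it at 48 h (FDR = 0.0056). Unlike guanylate kinase and Ras GTPase, it was thus at 0 under curcumin at both times.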

How the data were processed

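Per the study's methods, the authors filtered single-end Ion Proton reads and used T-Map to map them against the genome of *T. urticae*, a close relative, and each library has its own gene list. The authors deposited an estimated count of reads per gene, not scaled and not whole, and beside it the RPKM, which they scaled to length and mapped reads. Neither the counting tool nor the gene model version is named in the labels or methods. A gene missing from a list, which holds only values above 0, was taken as 0.

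Rounded estimated reads of all 8 libraries were fitted in 4 groups (4 residual degrees of freedom) by the robust quasi-likelihood method of edgeR (version 4.0.16, R 4.3.3), after filterByExpr and TMM scaling. Benjamini-Hochberg adjustment covered all 12227 genes, and a gene was called at an FDR of 0.05. The p-values rest on the spread between biological replicates in all 4 groups together, moderated over genes. Libraries outside a comparison therefore also weigh on its p-value. Alternatives were DESeq2 1.42.0; limma 3.58.1 on log2(RPKM + 1) and log2(RPKM + 0.1), where mean RPKM had to reach 0.5; library size only; no filter; the 4 libraries of a time point; a replicate block; and each library left out. In data simulated for the comparison at 24 h, with 200 of 12227 genes changed, edgeR recovered 160 and called 7 unchanged genes. The counts were drawn with the spread that edgeR itself had fitted, and 134 of the 200 changes were 4-fold or more. DESeq2 recovered 158 there, whereas in the real libraries at 24 h edgeR called 0 genes and DESeq2 39. The simulation therefore checks that the code runs as meant and does not give the power of the test in these libraries. Other values came from Python 3.11.15 (numpy 2.4.6, pandas 2.3.3, scipy 1.17.1). The members, the signalling list and the tests were chosen with earlier results of these data known. By the rule, the genes named were the 4 members, the signalling list and the 3 genes nearest to each member; tetur31g01490 and the genes under other observations were named after their values were seen. Genome positions, the PCR assay and gene families by annotation were not used here.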

Additional observations from a re-analysis of the deposited data

Results flagged for a closer look

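Guanylate kinase (tetur07g05920) had both curcumin libraries above both solvent libraries at 24 h and below both at 48 h. The fitted change was 0.65 at 24 h (edgeR FDR = 0.758), which did not pass, and -4.82 at 48 h (edgeR FDR = 0.0254). The difference between the changes was -5.47 on the log2 scale (SE 0.78, unadjusted p = 4.7e-05, edgeR FDR = 0.191).

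Ras GTPase (tetur08g03710) had its curcumin libraries on the same sides of the solvent libraries, with no call at 24 h (edgeR FDR = 0.707) or 48 h (edgeR FDR = 0.519). The difference was -9.17 (SE 2.56, unadjusted p = 0.00663, edgeR FDR = 0.399) and rests on 0 reads in curcumin 48 h. By the adjusted test neither difference passed.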

How the results depend on the processing

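The direction of guanylate kinase at 48 h held in all 16 alternatives and its call in 6. The changes without a call were -4.80 with DESeq2, -4.81 without the filter on low counts, -4.82 with only the 4 libraries at 48 h, -4.86 by limma on log2(RPKM + 1) with or without its filter, and -6.62 on log2(RPKM + 0.1). With 1 library left out the change ran from -11.19 to -3.79, both ends called, and the 4 without a call lay between -5.01 and -4.61. From 24 h to 48 h in curcumin, limma gave -4.89 on log2(RPKM + 1), with or without its filter, and -6.65 on log2(RPKM + 0.1), none of them called, and leaving out a library gave -11.17 to -3.78. The difference between the times ran from -11.84 to -4.44 with a library left out, and was called only without the first library of curcumin 48 h (FDR = 0.0230). The calls of the other 3 genes did not change in any alternative run that gave them an adjusted p. DESeq2 gave these 3 genes no adjusted p at 24 h, so that it made no call there. Estimates near 0 turned: from 24 h to 48 h in curcumin Ser/Thr protein kinase was -0.0057 by limma on log2(RPKM + 1), with or without its filter, and -0.0059 on log2(RPKM + 0.1), and between -0.044 and 0.13 with a library left out. At 48 h it ran from -0.18 to 0.066, with 0.02 without the second curcumin library. RabGAP/TBC ran from -0.51 to 0.32 at 48 h and from -0.017 to 1.10 over time in curcumin. The cause was not tested.

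Counts over all genes moved more. With DESeq2 there were 39 genes at 24 h, 89 at 48 h, 55 for the difference, 122 over time in solvent and 197 in curcumin, against 0, 22, 0, 23 and 56 with edgeR. Without the filter on low counts there were 10 at 48 h, 13 over time in solvent and 22 in curcumin. With limma on log2(RPKM + 1) there were 23 for the difference, 1 over time in solvent and 32 in curcumin, without its filter 35 at 48 h, 26, 2 and 35, and on log2(RPKM + 0.1) 1 at 24 h, 13, 1 and 24. Only the 4 libraries at 24 h gave 8. With a library left out the counts were 0 to 3 at 24 h, 5 to 18 at 48 h, 0 to 3 for the difference, 0 to 29 over time in solvent and 0 to 64 in curcumin.

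The deviations of libraries with the same number correlated across genes between -0.0875 and 0.1638, with 2 of 6 pairs of groups over 0.1, so that the numbers were not taken to pair the libraries; this does not show that no pairing exists. With the replicate block guanylate kinase was -4.84 at 48 h (FDR = 0.0267), 19 genes were called at 48 h, 0 at 24 h, 25 over time in solvent and 72 in curcumin, and no call of the 4 genes changed. RabGAP/TBC at 24 h was -1.17 with the block (SE 0.26, FDR = 0.353). With 2 libraries a group, depth limits Ras GTPase, where counts of 0 stand against at most 19.1 reads.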

Other observations

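Among genes with at least 100 reads in every library of the other groups, 3 further models were absent from the list of 1 library. In the second library of curcumin 24 h these were tetur16g01420 and tetur18g02450, both of 144 bp, with 748.1 and 195.2 reads in the other replicate. The shortest model listed in that second library was 145 bp long, so no model of 144 bp was listed there at any level. In the first library of solvent 48 h it was tetur66g00140, of 201 bp, with 59.9 reads in the other replicate. Guanylate kinase, at 336 bp, was the longest of the 4 models. The 71 tested models within 10 bp of its length had a median fitted change of -0.34 under curcumin at 24 h and 0.021 at 48 h, against 0.65 and -4.82 for the gene itself. Of all 137 models within 10 bp, tested or not, 17.5% were at 0 in the second library of curcumin 48 h. A median over other genes does not bear on a value of 0 in 1 library, and the part of length was not tested.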
